A study of Mus musculus with 8 samples.

Results

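The 7 genes Cited1, Tlr2, Palmd, Edil3, Chil1, Cavin2 and Crispld2 were followed in mouse pre-iPSCs after knockdown of the heterochromatin protein gene Cbx3. They are 7 of 18193 genes measured, covered by 16 of 45101 probe sets, and were chosen by their high signal on the Cbx3 arrays. The difference between Cbx3 and control arrays is therefore described below without a test. The arrays form 3 groups, all of pre-iPSCs, which have started reprogramming to pluripotency and stalled, grown in embryonic stem cell medium and exposed to siRNA for 3 days. The Cbx3 group (n = 3) had siRNA to Cbx3, which encodes HP1 gamma. The 3XHMT group (n = 2) had siRNAs to Ehmt1, Ehmt2 and Setdb1 together, which encode H3K9 methyltransferases. The control group (n = 3) had siRNA to luciferase, which these cells do not carry as a gene of their own. The labels speak of biological replicates without stating what was repeated, so each p-value measures the spread between these samples, which may be technical.

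HP1 proteins bind methylated lysine 9 of histone H3, the mark that Ehmt1, Ehmt2 and Setdb1 place, and are known for their part in heterochromatin. The 7 genes belong to no common pathway: they encode a nuclear coactivator, an innate immune receptor, a membrane-associated cytosolic protein, a caveolar coat protein and 3 secreted proteins. Most are better known from immune, endothelial, mesenchymal or embryonic tissues than from reprogramming cells.

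By Cbx3 minus control difference, 6 of the 7 stood near the top of all 18193 genes: Cited1 at rank 4, Tlr2 at 5, Palmd at 7, Edil3 at 9, Chil1 at 10 and Crispld2 at 12. Serpinb9b at rank 3 (2.01 on the log2 scale) and Rhox9 at rank 13 (1.74) lay just outside them. Cavin2 stood at rank 182, between Serpinb6b (0.82) and Tfap2c (0.81), so that it is not among the genes most raised over control. In Cbx3 minus 3XHMT signal, by contrast, Cavin2 had rank 2 of 18193, with a difference of 2.41, Palmd rank 5 (2.09) and Crispld2 rank 7 (2.03). Cited1 followed at rank 14 (1.87), Chil1 at 31 (1.63), Edil3 at 40 (1.53) and Tlr2 at 79 (1.28). The 3XHMT arrays may thus have had a part in the choice of any of the 7 genes. Of the 7 only Cavin2 had both 3XHMT arrays below all control arrays, while those of Palmd and Crispld2 lay inside the control range.

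The arrays were checked first. Over its bright probe sets, which also carry the symbol of the pseudogene Cbx3-ps5, Cbx3 signal in the Cbx3 arrays was 42.8%, 37.9% and 43.9% of control (limma adjusted p = 0.0453, 0.0465 and 0.0525). The only probe set of Cbx3 alone was much dimmer and read 82.9% of control (limma adjusted p = 0.988). A further dim one shared with the pseudogene read 79.0% (0.967). In the 3XHMT arrays the brightest probe sets of Setdb1, Ehmt2 and Ehmt1 were at 63.2%, 66.8% and 79.6% of control, with adjusted p of 0.556, 1.0 and 1.0. Pou5f1, a pluripotency factor, was bright in all groups, at 12.84 ± 0.01 in Cbx3, 13.04 ± 0.13 in 3XHMT and 12.99 ± 0.34 in control arrays (log2, SD). Of the 14 pluripotency markers 8 lay above 0 in Cbx3 against control, beside 9649 of all 18193 genes. Limma called 1 of them, Nanog, which rose 9.94-fold (adjusted p = 0.0151), beside 0.445% of all genes. In 3XHMT against control 14 of 14 lay above 0, beside 9397 of all genes, and 3 were called, beside 0.231% of all genes. Nanog rose 7.01-fold, Zfp42 8.54-fold and Dppa4 5.89-fold (limma adjusted p = 0.0434, 0.0452 and 0.0135). The arrays also divide into 3 sets by 18S ribosomal RNA signal at the middle one of its 3 control probe sets, although the 3' one does not part the lowest set from the middle set in that order. The lowest set held Cbx3 3, 3XHMT 2 and control 3, the middle set Cbx3 1 and control 1, and the highest set Cbx3 2, 3XHMT 1 and control 2. What separates the sets is not given in the labels, so differences within each set are printed beside the pooled ones. With the 18S set as a block, limma called Nanog higher and Fgf4 lower (-0.71, adjusted p = 0.0102) among the pluripotency markers in Cbx3 against control. That fit called 6.59% of all genes. In 3XHMT it called 4 of these markers, all higher, beside 1.76% of all genes. In such bulk samples fewer cells of a type and less RNA per cell cannot be told apart.

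Promoters of 5 of the 7 genes, 250 bases before to 50 after the annotated start, were matched by symbol in RefSeq (GRCm38.p6). They are shown because these genes were high on the same arrays, and capitals mark the motifs searched for on both strands: GGGA followed after 4 bases by CC, a form of NF-kappaB sites, TATAAA, the TATA box, and CACGTG, an E-box. For Cited1 the first of 3 annotated starts is given. Cited1 lies at chrX:102252132-102252431, minus strand, Tlr2 at chr3:83841559-83841858, minus strand, Chil1 at chr1:134181906-134182205, plus strand, Cavin2 at chr1:51288876-51289175, plus strand, and Crispld2 at chr8:119992188-119992487, plus strand.
Cited1: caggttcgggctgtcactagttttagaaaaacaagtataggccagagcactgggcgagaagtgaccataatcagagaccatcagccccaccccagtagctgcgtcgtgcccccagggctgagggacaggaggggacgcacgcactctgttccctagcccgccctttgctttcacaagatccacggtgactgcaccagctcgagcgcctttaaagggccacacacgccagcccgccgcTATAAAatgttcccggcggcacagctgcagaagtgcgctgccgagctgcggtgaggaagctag
Tlr2: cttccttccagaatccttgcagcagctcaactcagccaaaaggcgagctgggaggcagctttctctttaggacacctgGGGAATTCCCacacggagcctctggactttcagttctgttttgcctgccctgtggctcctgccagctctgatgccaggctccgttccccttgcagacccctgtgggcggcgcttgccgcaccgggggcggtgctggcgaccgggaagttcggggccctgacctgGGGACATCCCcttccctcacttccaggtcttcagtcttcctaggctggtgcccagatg
Chil1: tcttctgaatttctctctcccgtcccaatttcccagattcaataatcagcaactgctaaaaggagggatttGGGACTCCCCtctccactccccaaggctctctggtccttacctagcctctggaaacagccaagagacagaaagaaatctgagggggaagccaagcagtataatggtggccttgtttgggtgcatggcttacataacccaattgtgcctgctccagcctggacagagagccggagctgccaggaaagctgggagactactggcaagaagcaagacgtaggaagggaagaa
Cavin2: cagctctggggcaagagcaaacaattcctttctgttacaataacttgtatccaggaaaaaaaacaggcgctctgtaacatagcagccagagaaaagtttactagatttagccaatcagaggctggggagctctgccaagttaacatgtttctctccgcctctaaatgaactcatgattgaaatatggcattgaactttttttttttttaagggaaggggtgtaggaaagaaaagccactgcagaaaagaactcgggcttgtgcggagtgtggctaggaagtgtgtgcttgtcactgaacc
Crispld2: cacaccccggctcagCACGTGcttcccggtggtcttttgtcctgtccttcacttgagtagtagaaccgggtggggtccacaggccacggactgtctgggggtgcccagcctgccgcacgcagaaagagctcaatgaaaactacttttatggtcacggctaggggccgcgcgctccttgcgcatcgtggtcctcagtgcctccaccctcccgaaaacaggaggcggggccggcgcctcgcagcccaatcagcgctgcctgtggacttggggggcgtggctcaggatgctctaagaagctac
The printed Cited1 promoter held 1 TATAAA, at position -13 from the start, a motif found in 13.6% of the 32851 promoters of the table. Tlr2 held 2 matches to the NF-kappaB form and Chil1 held 1, against 20.7% of all promoters with at least 1. Crispld2 held 1 CACGTG, at position -235, which 7.15% of promoters held. In the Cavin2 window none of these letters were found. CpG pairs numbered 18 in the printed Cited1 promoter, 11 in Tlr2, 3 in Chil1, 4 in Cavin2 and 20 in Crispld2, with a median of 7 over the table. The promoters thus ranged from CpG-poor to CpG-rich, and no motif searched was shared by all 5. A match is a run of letters and not a measured binding site.

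Across the genes, all 3 Cbx3 arrays lay above all 3 control arrays for 6 of 7, Cavin2 being the exception. By that measure 7.52% of all genes were higher. Since the choice used these arrays, the count is a description. The median difference over the 7 genes was 1.86 on the log2 scale, beside 0.01 over all genes. Within the sets of like 18S signal, Cbx3 minus control was above 0 in 21 of 21 differences. For the 6 genes whose arrays do not overlap this had to be so, and only the differences of Cavin2 were free to fall below 0.

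**Figure D1:**
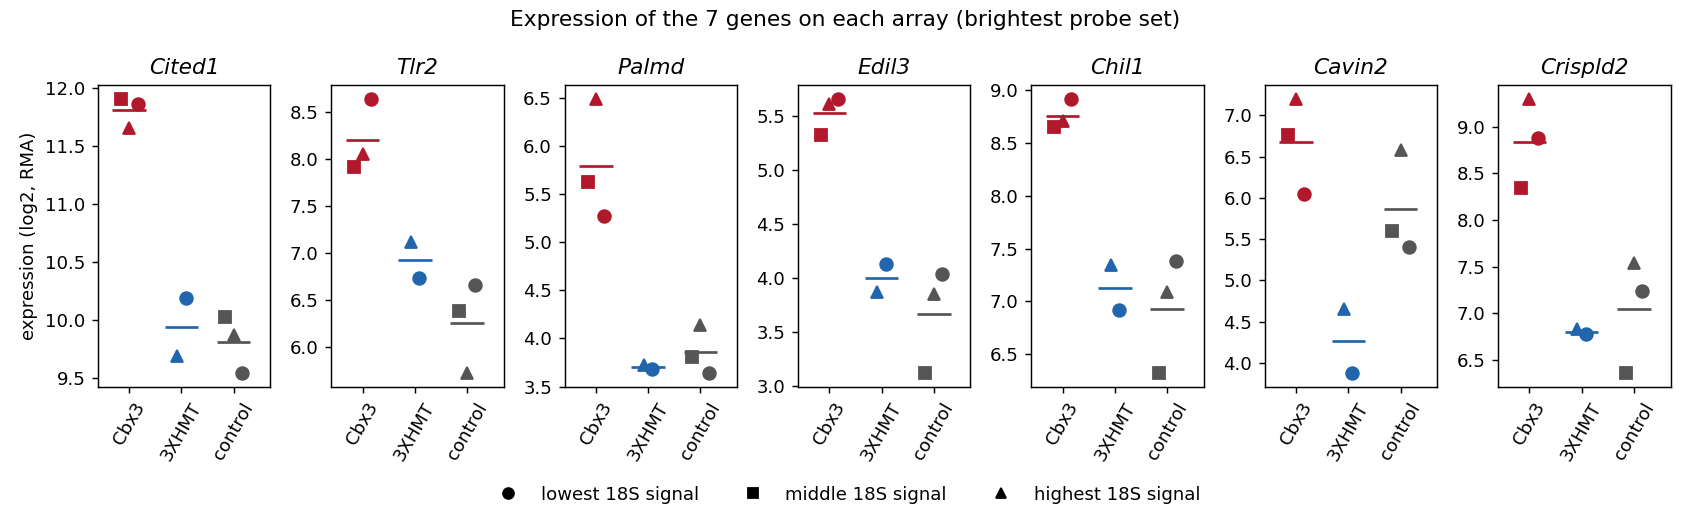
Expression (log2, RMA) of the 7 genes at the brightest probe set on each Cbx3, 3XHMT and control array, with a bar at the group mean and marker shapes for the sets of arrays by 18S control signal. Each panel has its own axis. In 6 panels the Cbx3 arrays lie above all others, and in the Cavin2 panel the Cbx3 and control arrays overlap while both 3XHMT arrays lie lowest.

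Cited1 encodes a coactivator without DNA binding of its own that joins CBP and p300 to transcription factors. Its only probe set read 11.91, 11.66 and 11.86 on the Cbx3 arrays, 9.69 and 10.19 on the 3XHMT arrays, and 10.02, 9.87 and 9.54 on the control arrays. The Cbx3 arrays lay close together and well above the other 5, which overlapped. Means were 11.81 ± 0.13 in Cbx3 (SD, n = 3) and 9.81 ± 0.25 in control arrays (SD, n = 3), a difference of 2.00 or 3.99-fold. This was a bright probe set, at the 93.4th percentile of all probe sets by mean signal. Within the sets of like 18S signal the differences were 2.31, 1.89 and 1.79, from the lowest to the highest set.

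Tlr2 encodes a Toll-like receptor that recognises bacterial lipoproteins as a pair with Tlr1 or Tlr6. It measured 7.91, 8.05 and 8.64 on the Cbx3 arrays, 7.11 and 6.73 on the 3XHMT arrays, and 6.38, 5.72 and 6.66 on the control arrays. The Cbx3 arrays were highest, and both 3XHMT arrays also lay above all control arrays, 3XHMT 2 by little. Cbx3 arrays averaged 8.20 ± 0.39 and control arrays 6.26 ± 0.48 (SD, n = 3 each), a 3.84-fold difference. Among the 7 genes Tlr2 alone had both 3XHMT arrays above every control array, where 9.28% of all genes did.

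Palmd encodes palmdelphin, a cytosolic member of the paralemmin family. The probe set gave 5.62, 6.49 and 5.27 on the Cbx3 arrays, 3.72 and 3.68 on the 3XHMT arrays, and 3.81, 4.14 and 3.64 on the control arrays. Cbx3 2 was the highest array and the control arrays held the range around both 3XHMT arrays. Means were 5.79 ± 0.63 in Cbx3 and 3.86 ± 0.25 in control arrays (SD, n = 3 each), or 3.82-fold. Outside the Cbx3 group Palmd was dim, and signal near background can compress a fold change. Its differences within the sets of like 18S signal were 1.64, 1.81 and 2.36.

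The first of the secreted proteins is that of Edil3, an extracellular ligand of integrin alpha v beta 3. It is measured by 6 probe sets. The brightest, 1433474_at, read 5.32, 5.61 and 5.66 on the Cbx3 arrays, 3.87 and 4.13 on the 3XHMT arrays, and 3.12, 3.85 and 4.04 on the control arrays. There the Cbx3 arrays stood above all others, with control 1 the lowest, and the difference of means was 1.86 or 3.63-fold. The remaining 5 probe sets did not show it: their Cbx3 minus control differences were 0.22, -0.06, 0.05, 0.10 and -0.01. All 5 were dim, between 2.60 and 4.68 on every array, and their Pearson r with the brightest over the 8 arrays ran from -0.32 to 0.61. The Edil3 difference thus rests on 1 probe set of 6, itself at the 25.0th percentile of mean signal.

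Chil1 encodes a chitinase-like lectin that binds chitin without cleaving it. It measured 8.65, 8.71 and 8.92 on the Cbx3 arrays, 7.34 and 6.92 on the 3XHMT arrays, and 6.32, 7.09 and 7.38 on the control arrays. The Cbx3 arrays were tightly grouped above the other 5, which overlapped, with control 1 again the lowest. Cbx3 arrays averaged 8.76 ± 0.14 and control arrays 6.93 ± 0.54 (SD, n = 3 each), a 3.56-fold difference. Within the sets of like 18S signal the differences were 1.55, 2.33 and 1.62.

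Crispld2 encodes a secreted protein of the CAP superfamily with LCCL domains. Its brightest probe set, 1437056_x_at, read 8.34, 9.30 and 8.88 on the Cbx3 arrays, 6.83 and 6.78 on the 3XHMT arrays, and 6.36, 7.54 and 7.24 on the control arrays. All Cbx3 arrays lay above the rest, and the 3XHMT arrays fell inside the control range. The other probe sets followed it: Cbx3 minus control was 1.79 (3.46-fold), 1.73 (3.31-fold) and 1.19 (2.28-fold) at the 3 probe sets. Their Pearson r with the brightest was 0.99 and 0.98 over the 8 arrays, as a description of probe sets for the same transcripts on shared arrays.

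Cavin2 encodes a coat protein of caveolae, the flask-shaped pits of the plasma membrane. The brightest probe set, 1416778_at, read 6.76, 7.20 and 6.05 on the Cbx3 arrays, 4.65 and 3.88 on the 3XHMT arrays, and 5.60, 6.58 and 5.40 on the control arrays. Cbx3 and control arrays overlapped, since Cbx3 3 lay below control 2. Means were 6.67 ± 0.58 in Cbx3 and 5.86 ± 0.63 in control arrays (SD, n = 3 each), a difference of 0.81 or 1.76-fold. Within the sets of like 18S signal each Cbx3 array lay above its control array, by 0.65, 1.17 and 0.63. The other probe sets gave 0.75 and 0.78, with Pearson r of 0.95 and 0.97 to the brightest, so that all 3 probe sets for Cavin2 gave one pattern.

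**Figure D2:**
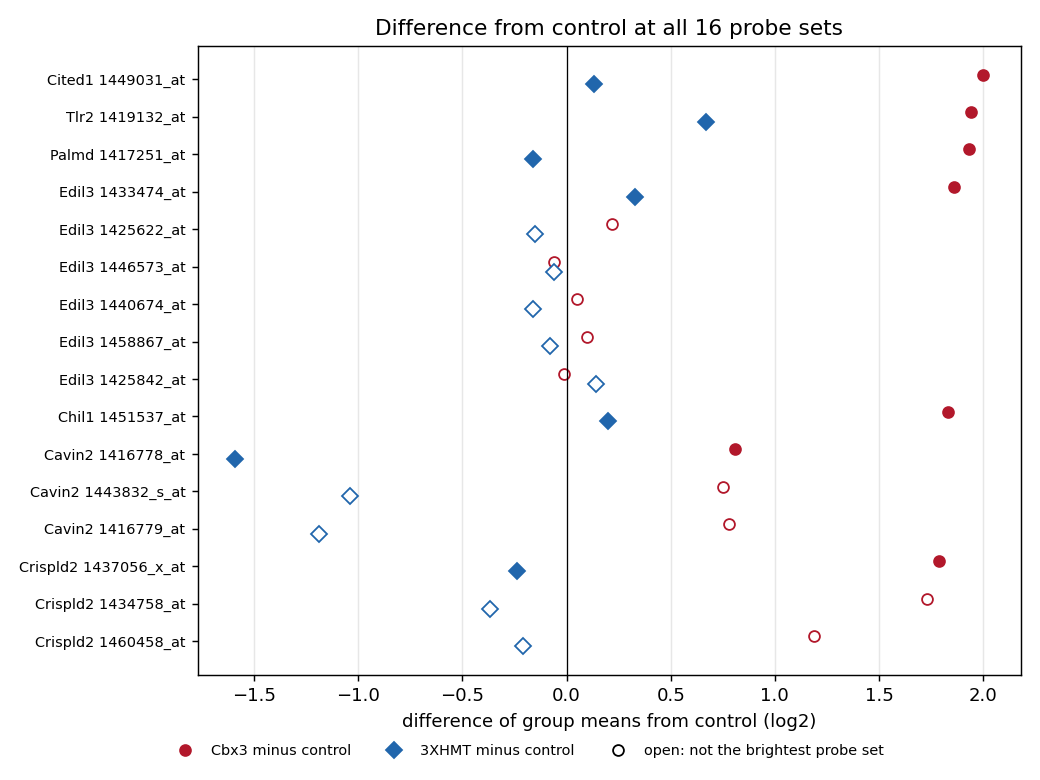
Difference of group means from control (log2) at all 16 probe sets of the 7 genes, as circles for Cbx3 minus control and diamonds for 3XHMT minus control, filled at the brightest probe set of a gene. The probe sets of Cavin2 and of Crispld2 lie together, whereas 5 of the 6 Edil3 probe sets lie near 0 in both.

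Taking all 16 probe sets, 8 had every Cbx3 array above every control array: the single probe sets of 4 genes, 1 of the 6 for Edil3 and all 3 for Crispld2. No probe set of Cavin2 did. Over all probe sets the share was 6.11%, and the choice of the genes used these arrays.

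The 7 genes were also read in 3XHMT against control, a comparison that shares the control arrays with their choice. The 3XHMT arrays may also have entered that choice. The values of the 7 genes are then not independent of it. In 3XHMT against control, 0 of the 7 genes passed the limma threshold, beside 0.231% of all genes. At an unadjusted p under 0.05 there was 1, Cavin2, where 5.27% of all genes passed. The estimates were 0.13 ± 0.20 for Cited1 (log2 ± SE, 95% interval -0.32 to 0.57), 0.20 ± 0.29 for Chil1 (-0.46 to 0.86), 0.33 ± 0.26 for Edil3 (-0.26 to 0.92) and -0.16 ± 0.32 for Palmd (-0.89 to 0.57), each at a limma adjusted p of 1.0.

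For Tlr2, the 3XHMT minus control difference was 0.67 ± 0.31 (SE), with an interval of -0.03 to 1.37 and a limma adjusted p of 0.991. It was unequal between sets, at 0.07 in the lowest set of 18S signal and 1.39 in the highest, and it was 0.40 without control replicate 2. Crispld2 differed by -0.24 ± 0.36 (interval -1.07 to 0.59, limma adjusted p = 1.0), and by -0.46 and -0.71 within the sets. With the 18S set as a block it was -0.54 ± 0.13 (interval -0.84 to -0.24), at a limma adjusted p of 0.0946.

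Cavin2 lay on the other side of control from its Cbx3 value: both 3XHMT arrays lay below all control arrays, as for 7.1% of all genes. The difference was -1.59 ± 0.43 (SE, interval -2.58 to -0.61), 3.02-fold lower, with an unadjusted limma p of 0.00558 and an adjusted p of 0.4. Within the sets it was -1.52 and -1.92. With the 18S set as a block the limma estimate was -1.64 ± 0.16, at an adjusted p of 0.00233, in a fit that called 1.76% of all genes and placed 0.89% lower. At the other probe sets signal was 2.05-fold and 2.29-fold lower, with 1 of the 2 3XHMT arrays below all control arrays at each. These p-values are not independent of the choice of Cavin2 if its low 3XHMT arrays entered that choice.

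**Figure D3:**
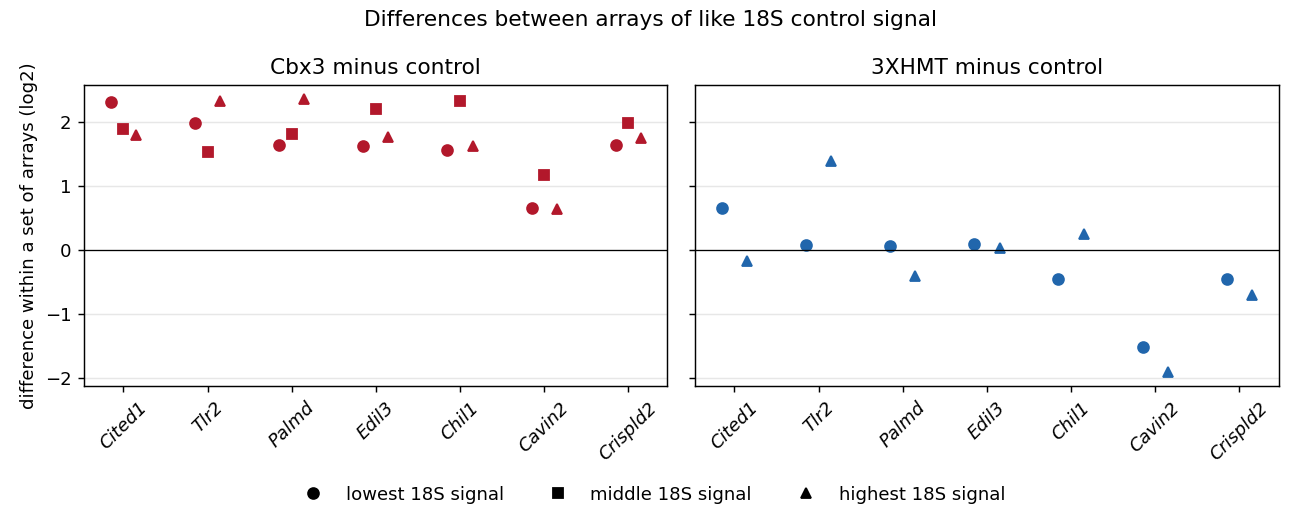
Cbx3 minus control and 3XHMT minus control differences (log2) of the 7 genes between single arrays of like 18S control signal, with 1 point for each set that holds both groups. All 21 Cbx3 points lie above 0, whereas 7 of the 14 3XHMT points do and both Cavin2 points lie lowest. For the 6 genes whose Cbx3 arrays all lie above all control arrays, the sign of the Cbx3 points was fixed.

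The 7 genes were set against each other over the 8 arrays, which share the group differences that chose them, so these correlations are descriptions. Edil3 and Chil1 were closest, with a Pearson r of 0.98, followed by Edil3 and Crispld2 at 0.95. Cavin2 was least like the others, from 0.32 with Tlr2 to 0.78 with Palmd. The nearest genes were sought with symbols of the form used for unnamed gene models and clones left out. Among the rest, the pattern most like Cited1 was that of Sertad1 (r = 0.983) and then Ss18 (0.979). For Tlr2 it was Tcaf2 (0.971) and Hsbp1l1 (0.962). Palmd was nearest to Rasl10a (0.983) and St6galnac2 (0.979), and Cavin2 to Nck2 (0.983) and Sgce (0.970). Igf2, the imprinted growth factor gene, was among the nearest pair for both Edil3 (0.985, with Cideb at 0.985) and Chil1 (0.987, after Evx1os at 0.989). Crispld2 was nearest to Prkch (0.988) and Vwf (0.985).

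The families and pathways of the 7 genes were then counted, without the 7 themselves. Of 92 listed genes 85 were measured. In Cbx3 against control, 40 of the 85 lay above 0, their median difference was -0.01 against 0.01 over all genes, and 1 was called by limma beside 0.445% of all genes. That gene was Ptgs2, the inducible prostaglandin synthase and a target of Toll-like receptor signalling, whose rise was already known when the list was drawn up. Ptgs2 read 9.17, 9.15 and 9.46 on the Cbx3 arrays, 8.67 and 9.19 on the 3XHMT arrays, and 7.24, 7.29 and 7.56 on the control arrays. Arrays of both knockdowns lay above all control arrays, with limma adjusted p of 0.00706 (log2 difference 1.90 ± 0.17, SE) for Cbx3 and 0.0283 (1.57) for 3XHMT. The Ptgs2 call was lost, leaving 0 of 85, without Cbx3 replicate 2 in the Cbx3 comparison, and without replicate 1 or 2 of any group in the 3XHMT comparison. At its second probe set it was called in neither. Without Ptgs2, limma called 0 of 84 in either knockdown, and 11, or 13.1%, had an unadjusted p under 0.05 in Cbx3 against control, where 9.56% of all genes did. With the 18S set as a block 7 of the 85, or 8.24%, were called, beside 6.59% of all genes.

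Of the Tlr2 pathway 31 of 33 genes were measured, and 19 lay above 0 in Cbx3 against control with a median of 0.09. The co-receptor genes Tlr1 and Tlr6 differed by 0.18 and -0.10 and the adaptor gene Myd88 by 0.28, none called. Next to Ptgs2 the lowest p-values belonged to Ccl2, a chemokine gene (0.93, adjusted p = 0.0743), Irak3, an inhibitor of the pathway (-0.62, adjusted p = 0.118), and Lbp, which encodes a lipopolysaccharide carrier (0.58, adjusted p = 0.191). Nfkbiz, an NF-kappaB cofactor gene, differed by 0.62 (adjusted p = 0.243). With the 18S set as a block these 4 passed at limma adjusted p of 0.00824, 0.00507, 0.0127 and 0.014. That fit called 6.59% of all genes. Of the 31 measured genes of the pathway it called 4 higher, Ptgs2 among them, and 1, Irak3, lower.

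Around Cited1, 12 of 12 genes were measured, 7 above 0 with a median of 0.12 and none called. Esr1, the estrogen receptor gene, read 6.38, 5.66 and 5.43 on the Cbx3 arrays, 6.47 and 7.16 on the 3XHMT arrays, and 8.07, 6.80 and 7.54 on the control arrays. Every Cbx3 array was below every control array, with a difference of -1.65 ± 0.36 (SE), a limma adjusted p of 0.12, and 0.00138 with the 18S set as a block. Tfap2c, an AP-2 transcription factor gene, differed by 0.81 (adjusted p = 0.293) and Cited2, the paralogue, by 0.37. Smad3 and Smad4, signal transducers of the TGF-beta family, differed by -0.34 and -0.21 (adjusted p = 0.235 and 0.678).

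Caveolar genes were measured for 9 of 10, with 5 above 0 in Cbx3 and 2 above 0 in 3XHMT against control, and none called in either. Cav1 and Cav2, the caveolin genes, differed by 0.79 and 0.64 in Cbx3 (limma adjusted p = 0.892 and 0.847) and by -0.59 and -0.63 in 3XHMT (adjusted p = 1.0 for both). Their arrays varied widely: Cav1 read 9.36, 7.47 and 9.91 in Cbx3, 6.87 and 8.20 in 3XHMT, and 7.60, 7.68 and 9.10 in control arrays. Cavin1, the main cavin of caveolae, differed by -0.14 in Cbx3 and -0.36 in 3XHMT. Cavin3, Ehd1 and Ehd2, further genes of the caveolar coat and neck, differed by -0.29, 0.26 and 0.33 in Cbx3.

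In the remaining families no gene was called in either knockdown without a block. The measured paralemmin genes Palm and Palm2 differed by -0.43 and -0.11 in Cbx3 against control. Akap2, an A-kinase anchoring protein gene kept on the same list, differed by -0.48 in Cbx3 and by 0.69 in 3XHMT against control (limma adjusted p = 0.789 and 1.0), and was called in 3XHMT with the 18S set as a block (0.98, adjusted p = 0.021). Of 9 measured genes of the Edil3 family and its integrins 3 lay above 0, with Mfge8, the paralogue, at -0.21, Itgav at 0.07 and Itgb5 at -0.24 (adjusted p = 0.472). Of 11 measured chitinase family and Chil1 receptor genes 3 lay above 0, within -0.38 to 0.08. Of 10 measured CAP superfamily genes 3 lay above 0, with the paralogue Crispld1 at 0.08, Glipr1 at -0.35 (adjusted p = 0.466) and Glipr2 at -0.67 (adjusted p = 0.128, and 0.0161 with the 18S set as a block).

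**Figure D4:**
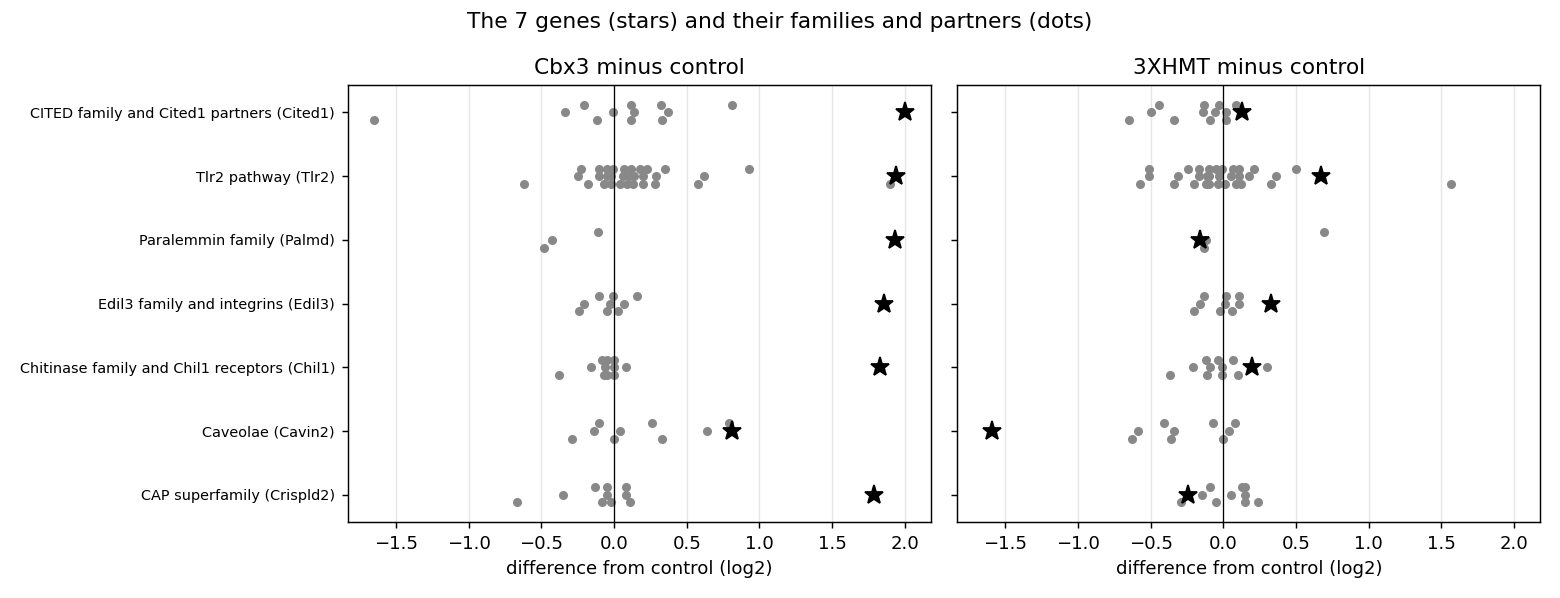
Differences from control (log2) of the 7 genes (stars) and of the 85 measured genes of their families and pathways (dots), for Cbx3 minus control on the left and 3XHMT minus control on the right. The stars of 6 genes lie near 2 on the left, while the dots centre on 0 apart from Ptgs2 at 1.90 and Esr1 at -1.65.

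Genes beside the 7 on the chromosome were counted as well, the nearest 2 measured on each side. Of these 28 genes 13 lay above 0 in Cbx3 against control, with a median of -0.01, and limma called 0, beside 0.445% of all genes. At an unadjusted p under 0.05 there was 1, where 9.56% of all genes passed. That was Btg2, an antiproliferative gene near Chil1, at 10.97, 11.22 and 11.06 on the Cbx3 arrays, 10.82 and 10.51 on the 3XHMT arrays, and 10.31, 10.62 and 10.09 on the control arrays. Its Cbx3 arrays were all above its control arrays, by 0.74 ± 0.16 (SE, limma adjusted p = 0.118, and 0.00456 with the 18S set as a block). Chit1, the chitinase gene between Btg2 and Chil1 among measured genes, differed by -0.05. In 3XHMT against control limma likewise called 0 of 28, beside 0.231% of all genes. At an unadjusted p under 0.05 there was again 1, where 5.27% of all genes passed. It was Nabp1, a single-stranded DNA binding protein gene next to Cavin2, with 8.74 and 8.92 on the 3XHMT arrays and 7.50, 7.16 and 7.93 on the control arrays. Nabp1 was thus 1.30 ± 0.31 higher (SE, limma adjusted p = 0.285, and 0.0114 with the 18S set as a block) where Cavin2 was lower.

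**Figure D5:**
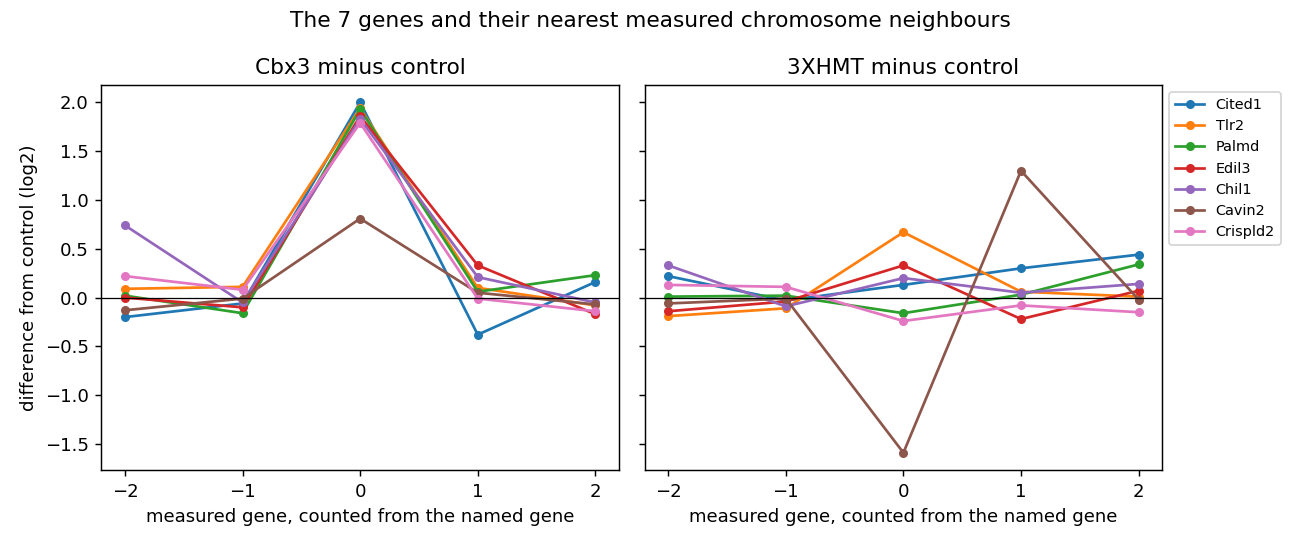
Difference from control (log2) of each of the 7 genes, at position 0, and of the 2 nearest measured genes on each side along the chromosome. The Cbx3 panel on the left peaks at position 0 with neighbours between -0.38 and 0.74, and on the right Cavin2 at -1.59 and Nabp1 at 1.30 stand apart.

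Markers of cells in which the 7 genes are commonly found were read on the same arrays. Of 14 macrophage markers, fixed with Tlr2 and Chil1 in mind, limma called 0 in Cbx3 against control. At an unadjusted p under 0.05 there were 3, of both signs. Lyz2 was higher (log2 difference 0.36), with every Cbx3 array above every control array, while Laptm5 (-1.76) and Fcgr3 (-0.48) were lower. With the 18S set as a block 2, Laptm5 and Mrc1, were called lower, although 7 of the 14 markers lay above 0. Laptm5, a lysosomal protein gene and the brightest of them over all arrays, was 3.38-fold lower in Cbx3 than control arrays (limma adjusted p = 0.0601, 0.00473 with the replicate block that pairs these groups, and 0.00114 with the 18S set). The macrophage markers' mean level was 5.29 to 5.51 on Cbx3, 5.46 to 5.57 on 3XHMT and 5.56 to 5.61 on control arrays, and Ptprc, the leukocyte marker, was dim at 3.32, 3.43 and 3.39 in the group means of Cbx3, 3XHMT and control. Of 14 endothelial markers limma called 0, with 4 at an unadjusted p under 0.05, while with the 18S set as a block Vwf (0.51, adjusted p = 0.0144) and Esam (0.89, 0.0248) were higher and Tek (-1.39, 0.000534) was lower. They had mean levels of 5.65 to 5.72 in Cbx3, 5.58 to 5.69 in 3XHMT and 5.41 to 5.63 in control arrays. Pecam1 averaged 4.18 in Cbx3, 4.12 in 3XHMT and 3.91 in control arrays, and Cdh5 averaged 4.74, 4.63 and 4.59. Of 13 measured fibroblast markers limma called 0, with 1 at an unadjusted p under 0.05, and their mean levels overlapped. At that p 9.56% of all genes passed, and with the block 6.59% were called.

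Epithelial markers were higher on the same arrays as the 7 genes. All 8 lay above 0 in Cbx3 against control with a median of 0.76, and limma called 0, with 5 at an unadjusted p under 0.05 and 5 called with the 18S set as a block, beside those same 9.56% and 6.59% of all genes. Their mean level was 8.85 to 9.08 on Cbx3 arrays, 8.07 to 8.11 on 3XHMT arrays and 7.88 to 8.56 on control arrays, so that Cbx3 arrays lay above all others. Krt8, a keratin gene of simple epithelia, differed by 1.60 (limma adjusted p = 0.112, and 0.00628 with the block). With the replicate block 2 of the 8, Krt8 and Epcam, were called (limma adjusted p = 0.0387 and 0.0392). The share of all genes called with that block is not given here, so this count has nothing to be set against. Their part in the levels of the 7 genes was not tested. The 8 measured trophoblast markers had 0 called and 1 at an unadjusted p under 0.05.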

How the data were processed

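The 8 arrays (3 Cbx3, 2 3XHMT, 3 control) were deposited as 1 table of log2 values for 45101 probe sets, which the authors made with RMA, per the submitters' processing notes. Its version is not given in the sources used here. RMA normalizes by quantiles, which removes shifts common to most genes, and array medians lay at 5.87 to 5.90. The number of arrays limits the precision. In the platform annotation 34945 probe sets had 1 symbol, 932 had several and 9160 were not listed. Of the single symbols 34741 were found in RefSeq and 204 were not. The 64 control probe sets entered no test. The brightest probe set stood for each of 18193 genes. The limma package (3.58.1, R 4.3.3) fitted a mean per group over the 8 arrays (5 residual degrees of freedom, two-sided), with Benjamini-Hochberg adjustment over all genes and a threshold of 0.05. P-values of the Cbx3, Ehmt1, Ehmt2 and Setdb1 probe sets were adjusted over all probe sets instead. The fit was tested on simulated data.

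The members and lists were chosen with earlier results of these data known. The rule for named genes took the 7 genes, the siRNA targets, called list members and the 4 of lowest p in each list, and chromosome neighbours. It also took the 2 genes of highest Pearson r, with symbols of the form of unnamed models and clones left out. Those ranked next by Cbx3 minus control were added, and of each marker list the 2 brightest and any called. Not all of them are printed. Tlr1, Tlr6, Myd88, Cited2, Cav1, Cavin1, Mfge8, Itgav and Crispld1 are family members named for their role. Nfkbiz had the next lowest p of its list in Cbx3 against control, after the 4 that the rule took. The other markers were named after their values were seen.

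Deviations from the group means correlated between same-numbered Cbx3 and control arrays by 0.57, 0.585 and 0.744, so the labels' replicate numbers pair these groups. For 3XHMT and control they were 0.106 and -0.56, and the numbers do not pair them. Alternatives were other probe set choices, filters, cyclic loess, an intensity trend, 2 groups alone, blocks for the replicate number or 18S set, and leaving out each array. The 18S sets were known from earlier results.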

Additional observations from a re-analysis of the deposited data

How the results depend on the processing

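The median Cbx3 minus control difference over the 7 genes, whose sign their choice fixed, was 1.86, and 1.58 to 1.96 on leaving out single arrays, lowest without control replicate 1. In 3XHMT against control 0 of the 7 genes were called, 1 (Cavin2) with the 18S block, and 0 to 0 on leaving out single arrays. The replicate block left 0 of the 7 called and 1 called family gene in each knockdown. It called 0 neighbours in Cbx3 but 1 in 3XHMT (Nabp1). The share of all genes called with the replicate block is not given here, so these counts have no share beside them. That block pairs Cbx3 with control arrays but does not pair 3XHMT with control arrays. The 18S sets hold the same pairs of Cbx3 and control arrays, so the 18S block is also a paired fit for these 2 groups. Called family genes in Cbx3 numbered 1, 7 with the 18S block (8.24%, beside 6.59% of all genes), 0 with the second probe set and 0 to 1 without single arrays, 0 arising without Cbx3 replicate 2. In 3XHMT they numbered 1, and 2 with the 18S block, which called 1.76% of all genes. They numbered 0 with the second probe set or with only the 2 groups compared, and 0 to 1 without single arrays. Called neighbours in Cbx3 numbered 0, and 1 (Btg2) with the mean over probe sets, the second probe set or the 18S block. The 18S block called 6.59% of all genes there. In 3XHMT called neighbours numbered 0, and 1 (Nabp1) with the 18S block, which called 1.76% of all genes. Neighbour counts of both knockdowns were 0 to 0 without single arrays. The causes of these changes were not tested.

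Small 3XHMT differences changed sign without 1 array: Cited1 ranged from -0.12 to 0.38 (-0.01 without control replicate 3), Chil1 from -0.10 to 0.43 (-0.01 without 3XHMT replicate 1) and Crispld2 from -0.59 to 0.01. At its second probe set Edil3 was at -0.15. Without single arrays Tlr2 ranged from 0.40 (without control replicate 2) to 0.87, Edil3 from 0.06 to 0.51 and Palmd from -0.27 to -0.02. Cavin2 stayed between -1.98 and -1.21 without single arrays, with adjusted p of 0.35 to 0.995. Edil3 and Palmd lie low in signal, as does Cavin2 on the 3XHMT arrays (4.65 and 3.88), and there a difference can be compressed. These genes were left out by the filter on dim probe sets.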
